A study of Mus musculus with 4 samples.

Results

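Gpnmb/Mmp12 macrophages, the myeloid cells described here, are those of the mouse kidney at 30 and 7 days after ischemia-reperfusion injury (IRI) that carried many transcripts of Gpnmb, Mmp12 or both; they were chosen by their measured levels of these and of the gating genes. A cell was counted as one when it had at least 500 unique molecular identifiers (UMIs, each standing for 1 captured transcript), at least 300 genes and at most 50% mitochondrial UMIs. Per 10,000 UMIs it also had at least 20 of the myeloid genes Tyrobp, Fcer1g and Ctss together, under 100 of the neutrophil genes S100a8 and S100a9 together, and at least 3 of Gpnmb and Mmp12 together. Cells with 3 or more UMIs of the proliferation genes Top2a and Mki67 were left out. The rule took 1462 of the 6946 kept cells of the day 30 library and 219 of the 1930 kept cells of the day 7 library, which is 1681 cells of 8876 in both libraries and of 24410 kept cells in the series.

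All cells came from BAC-CluGFP mice, in which green fluorescent protein (GFP) reports expression of Clu, the gene of the secreted chaperone clusterin. The 4 single-cell libraries held kidney cells of mice left untreated and of mice killed on day 2, day 7 or day 30 after 35 min of ischemia with reperfusion. Every group had 1 library, so no comparison has a replicate check and no test was possible. The sources used here give neither the age and sex of the mice nor the number pooled for a library. Kidneys were digested with Collagenase II, Dispase II and DNase I, and GFP-positive cells were sorted by flow cytometry before 3′ capture on the 10x Genomics platform. The sort limits what a count of cells can show, because a macrophage is present only if it was sorted as GFP-positive. Clu itself was low in the Gpnmb/Mmp12 cells, at 176 counts per 1000000 UMIs (CPM) on day 30 and 291 CPM on day 7, against 1160 CPM and 1742 CPM in the epithelial cells of the day 30 and the day 7 library. The transcript of GFP was not analysed here.

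The 4 libraries held 27230 barcodes, with 76638427 UMIs on day 30 and 49397016 UMIs on day 7. Depth differed between them: the shallowest barcode had 5976 UMIs on day 30 and 18362 UMIs on day 7, so the day 7 library holds deep barcodes only. Gpnmb/Mmp12 cells had a median of 9401.5 UMIs and 2881.5 genes on day 30, and of 22355 UMIs and 4482 genes on day 7. The mitochondrial share had a median of 3.49% on day 30 and 3.13% on day 7. Between 4 and 20 barcodes were shared by each pair of libraries, and none of these passed the rule in both libraries of a pair. Scrublet, a doublet caller, marked 144 of the Gpnmb/Mmp12 cells on day 30 and 4 on day 7; these cells were kept.

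Macrophages clear dead cells and debris after kidney injury, and their lysosomes break down what they take up. Gpnmb encodes a transmembrane glycoprotein of lysosomes and the cell surface, and it is a known target of the MiT transcription factors, which switch on lysosomal genes. Mmp12 encodes macrophage elastase, a secreted metalloprotease that degrades elastin. H2-M2 encodes a nonclassical class I histocompatibility molecule and is part of the cells' working name, but not of the rule. Macrophages in lipid-rich or injured tissue often raise Gpnmb together with Trem2, a lipid-sensing receptor, and genes of lipid uptake such as Cd36, Lpl and Fabp5.

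In the mm10 build, Gpnmb (ENSMUSG00000029816) lies on the forward strand of chromosome 6 at 49036546 to 49070929 and Mmp12 (ENSMUSG00000049723) on the forward strand of chromosome 9 at 7344381 to 7369499. H2-M2 (ENSMUSG00000016283) lies on the reverse strand of chromosome 17 at 37480851 to 37483552. The 2 promoter windows below, from RefSeq on GRCm38.p6, belong to the genes that define the cells: chr6:49036268-49036567 for Gpnmb and chr9:7347124-7347423 for the second of 2 starts that RefSeq gives for Mmp12, both on the forward strand and each from 250 bases before to 50 bases after the start. They are shown because both hold the AP-1 motif TGANTCA, in capitals, and the Mmp12 window also holds the MiT motif TCANGTG, in capitals on the other strand. The window of the other Mmp12 start, at chr9:7344147-7344446, held neither motif, and the Gpnmb window held no MiT motif.
Gpnmb: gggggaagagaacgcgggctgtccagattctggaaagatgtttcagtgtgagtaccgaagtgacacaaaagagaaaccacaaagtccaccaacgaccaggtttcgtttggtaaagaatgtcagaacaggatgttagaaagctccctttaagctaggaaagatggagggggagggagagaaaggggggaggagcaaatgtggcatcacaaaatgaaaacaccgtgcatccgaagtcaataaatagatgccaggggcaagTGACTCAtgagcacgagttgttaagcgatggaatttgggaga
Mmp12: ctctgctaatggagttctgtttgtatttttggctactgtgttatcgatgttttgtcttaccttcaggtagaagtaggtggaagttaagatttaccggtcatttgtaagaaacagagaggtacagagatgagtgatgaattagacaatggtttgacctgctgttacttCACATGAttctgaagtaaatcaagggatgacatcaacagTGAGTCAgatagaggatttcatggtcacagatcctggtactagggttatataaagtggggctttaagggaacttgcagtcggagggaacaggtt
The AP-1 letters start 9 bases after the Gpnmb start and 44 bases before this Mmp12 start, and the MiT letters start 83 bases before it. Searched on both strands of 32851 promoter windows of the same length, TGANTCA was in 7.81% and TCANGTG in 14.3% of them. Of the 14 genes named further on as higher in Gpnmb/Mmp12 cells, 10 had a window, and each of the 2 motifs was in 3 of these, as was another motif searched, the PU.1 core GAGGAA, which was in 28.3% of all windows. A match is a run of letters and shows no binding.

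Macrophage genes were high in the cells, as their name says, beside other kept cells that mostly lay outside the myeloid gate. Each of 15 macrophage markers was above 20 CPM in the summed Gpnmb/Mmp12 cells of both days, and each was higher than in all other kept cells of the same library, by 2.21-fold to 7.31-fold on day 30 and by 3.34-fold to 10.97-fold on day 7. Cd68, a lysosomal glycoprotein of macrophages, had 494 CPM in Gpnmb/Mmp12 cells on day 30 and 81.3 CPM in the other kept cells. On day 7 it had 484 CPM in Gpnmb/Mmp12 cells and 53.5 CPM in the other kept cells. Markers of lymphocytes were near 0 in the cells: on day 30 the summed level was 13.02 CPM for T cells, 2.5 CPM for NK cells and 5.0 CPM for B cells. Neutrophil markers summed to 66.8 CPM on day 30 and 150.6 CPM on day 7, with Ly6g at 0 on day 7. Dendritic cell markers summed to 130.8 CPM on day 30, when 1 of 7 (Cd209a) was above 20 CPM, and to 12.6 CPM on day 7, when Xcr1 and Ccr7 were at 0. The third gene of the working name, H2-M2, was 5.22-fold higher than in the other kept cells on day 30 and 3.97-fold higher on day 7.

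Gpnmb/Mmp12 cells made up 21.0% of the kept cells on day 30 (95% Clopper-Pearson interval 20.1% to 22.03%) and 11.3% on day 7 (9.97% to 12.8%). These intervals, like all others given here, cover counting error only. Among all cells of the myeloid gate, which are the cells that meet every part of the rule except the Gpnmb and Mmp12 level, they were 60.4% of 2420 cells on day 30 (58.4% to 62.4%) and 72.3% of 303 cells on day 7 (66.9% to 77.2%). The same rule took 19 of 67 myeloid cells in the untreated library (28.4%, 18.0% to 40.7%) and 283 of 1960 on day 2 (14.4%, 12.9% to 16.1%). The library, the animals and the sort cannot be told apart from the time point.

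Some cells outside the myeloid gate also reached the threshold on day 30. Epithelial cells were gated at 3 or more UMIs of Epcam, Cdh16, Krt8 and Krt18 together per 10,000 UMIs. They also had under 5 of the myeloid genes Tyrobp, Fcer1g and Ctss together. Gpnmb and Mmp12 together reached 3 per 10,000 UMIs in 202 of 2729 of them on day 30 (7.40%, 6.45% to 8.45%) and in 1 of 1345 on day 7 (0.0743%). At 10 per 10,000 UMIs this was 5 epithelial cells on day 30 (0.183%) and none on day 7, while 906 myeloid cells on day 30 (37.4%) and 171 on day 7 (56.4%) still passed. The median epithelial cell had 9863 UMIs on day 30 and 23741 UMIs on day 7. As summed levels, Mmp12 had 3232 CPM in Gpnmb/Mmp12 cells and 80.1 CPM in epithelial cells on day 30, and 2664 CPM in Gpnmb/Mmp12 cells and 15.9 CPM in epithelial cells on day 7. Gpnmb had 911 CPM in Gpnmb/Mmp12 cells and 25.1 CPM in epithelial cells on day 30, and 826 CPM in Gpnmb/Mmp12 cells and 6.11 CPM in epithelial cells on day 7. On day 30 the lowest levels among the Gpnmb/Mmp12 cells were thus also found in epithelial cells; the part of free RNA in this was not tested.

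**Figure D1:**
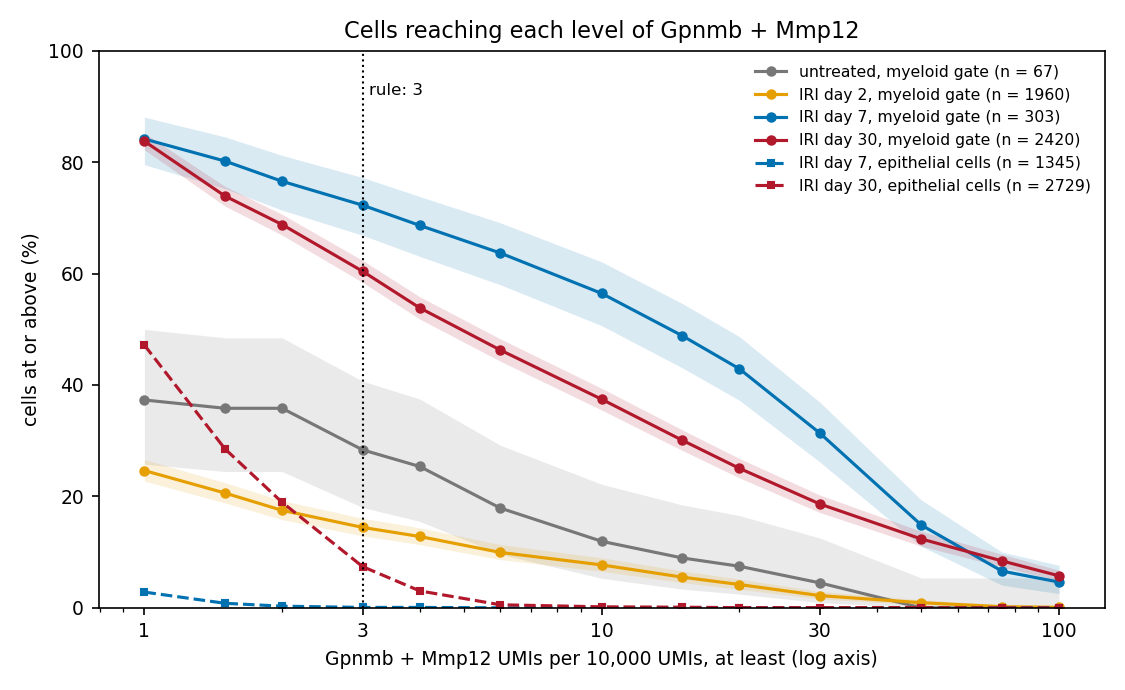
Share of cells (vertical axis, %) that reach each level of Gpnmb and Mmp12 together (horizontal axis, UMIs per 10,000 UMIs, log scale) among myeloid-gate cells (solid lines, circles) and epithelial cells (dashed lines, squares), with bands for the 95% Clopper-Pearson interval and a dotted line at the threshold of 3. At that line 60.4% of myeloid cells pass on day 30 and 72.3% on day 7, with 7.40% and 0.0743% of epithelial cells on day 30 and day 7.

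The cells spread widely above the threshold. Gpnmb and Mmp12 together had a median of 15.0 per 10,000 UMIs on day 30, with quartiles of 6.40 and 39.8 and a highest cell at 545.1. On day 7 the median was 25.4, the quartiles were 11.4 and 44.8, and the highest cell had 239.8. Just inside the threshold, from 3 to under 4, lay 159 cells on day 30 and 11 on day 7. Just outside it, from 2 to under 3, lay 203 myeloid cells on day 30 and 13 on day 7. On day 30 some genes were close on the 2 sides of the line: Lpl had 518 CPM inside and 529 CPM outside, Anxa1 had 122 CPM inside and 113 CPM outside, and Il7r had 59.1 CPM inside and 47.7 CPM outside. Others were not, with Fabp5 at 512 CPM inside and 284 CPM outside. The threshold cuts a continuous range of levels.

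Both genes were detected in 843 of the 1462 cells on day 30 (57.7%) and in 127 of the 219 cells on day 7 (58.0%). Mmp12 without Gpnmb was found in 577 cells on day 30 and 69 on day 7, and Gpnmb without Mmp12 in 42 cells on day 30 and 23 on day 7. Epithelial cells held both genes in 14.5%, Mmp12 alone in 42.0% and Gpnmb alone in 9.05% of cells on day 30. On day 7 these shares were 4.91%, 25.4% and 8.92%. Whether these UMIs came from free RNA or from the epithelial cells themselves was not tested. A single UMI therefore does not show that a cell expresses the gene, and the sets that follow are sets by detected UMIs. The rule forces a cell that lacks one gene to carry the other, so the levels of the genes that follow describe cells sorted by the 2 rule genes.

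Cells with Gpnmb and cells with Mmp12 alone carried different partner genes. Trem2 had 754 CPM where Gpnmb was found alone, 564 CPM with both genes and 160 CPM with Mmp12 alone on day 30. On day 7 the order was the same, with 743 CPM, 578 CPM and 124 CPM. Apoe, the lipid-carrying apolipoprotein E, had 39298 CPM with Gpnmb alone, 14974 CPM with both and 5717 CPM with Mmp12 alone on day 30, and 33970 CPM, 16461 CPM and 2030.5 CPM on day 7. Ccr2, the chemokine receptor of recruited monocytes, ran the other way: 173 CPM with Gpnmb alone, 403 CPM with both and 1167 CPM with Mmp12 alone on day 30, and 83.7 CPM, 388 CPM and 889 CPM on day 7. Retnla, a secreted product of alternatively activated macrophages, had 89.0 CPM, 563 CPM and 2392 CPM in these sets on day 30 and 0, 93.6 CPM and 952 CPM on day 7.

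The same order of Trem2 was found at both levels of C1q, the complement protein that many macrophages make. A cell was called C1q-rich at 20 or more UMIs of C1qa, C1qb and C1qc per 10,000 UMIs, and C1q-low below that. Among C1q-rich Gpnmb/Mmp12 cells on day 30, Trem2 had 710 CPM in cells with a Gpnmb UMI and 280 CPM in cells without one. In C1q-low ones it had 357 CPM with a Gpnmb UMI and 58.8 CPM without. With every cell thinned to 5000 UMIs, a Trem2 UMI was found in 90.5% of 451 C1q-rich cells with a Gpnmb UMI and in 56.7% of 335 without; unthinned, these shares were 93.4% of 527 cells and 69.1% of 259. In C1q-low cells the thinned shares were 56.7% of 282 and 17.0% of 394, and the unthinned ones 58.7% of 358 and 24.5% of 318. Thinned epithelial cells of the same library had a Trem2 UMI in 6.56% of cells. Ccr2 again went the other way, with 289 CPM in C1q-rich cells with a Gpnmb UMI and 909 CPM without, and 557 CPM in C1q-low cells with a Gpnmb UMI and 1382 CPM without.

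The level of the 2 genes also went with several others. The 1462 cells of day 30 were split into 556 cells at 3 to under 10 per 10,000 UMIs, 455 at 10 to under 30, and 451 at 30 or more; on day 7 these sets held 48, 76 and 95 cells. Anxa1, the phospholipid-binding annexin A1, had 151 CPM in the low set, 287 CPM in the middle set and 850 CPM in the high set on day 30, and 189 CPM, 309 CPM and 566 CPM on day 7. Il7r, the interleukin-7 receptor chain, had 64.8 CPM, 148 CPM and 458 CPM on day 30 and 47.7 CPM, 116 CPM and 265 CPM on day 7. Both genes were ordered alike on the 2 days. Mfge8, a secreted bridge between phagocytes and dying cells, had 40.9 CPM, 89.7 CPM and 516 CPM on day 30 but 42.3 CPM, 40.5 CPM and 44.9 CPM on day 7. Ccr2 had 976 CPM, 778 CPM and 256 CPM on day 30 and ran in the opposite order on day 7, with 423 CPM, 505 CPM and 552 CPM.

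To describe what sets the cells apart from other macrophages of the same library, their summed UMIs were placed beside those of the C1q-rich cells of the myeloid gate that had under 3 UMIs of Gpnmb and Mmp12 per 10,000, 415 cells on day 30 and 59 on day 7. The rule chose the cells on this contrast and genes that vary with Gpnmb or Mmp12 follow, so its values are a description. A gene was counted as higher or lower when its CPM differed by at least 2-fold and the 95% Poisson interval of the ratio excluded 1. On day 30, 119 of 6253 measured genes were higher (1.9%) and 126 were lower (2.02%). On day 7, 172 of 6496 were higher (2.65%) and 593 were lower (9.13%). The split moved with the processing: with free RNA subtracted day 30 had 379 higher and 243 lower genes, and with median-of-ratios scaling day 7 had 232 higher and 471 lower. The median log2 ratio over all measured genes was -0.02 on day 30 and -0.12 on day 7. Counted in both libraries were 77 higher genes, which are 64.7% of the day 30 count and 44.8% of the day 7 count, and 68 lower genes, which are 54.0% and 11.5% of the day 30 and the day 7 count. The 59 comparison cells of day 7 also carried other cells' RNA: markers of nephron epithelium other than proximal tubule summed to 588.6 CPM in Gpnmb/Mmp12 cells and 1976.0 CPM in the comparison cells, and fibroblast markers to 308.9 CPM and 821.4 CPM in the same order. On day 30 these sums were 441.0 CPM and 571.5 CPM for the epithelium and 288.5 CPM and 558.6 CPM for fibroblasts. Proximal tubule markers summed to 466.9 CPM in Gpnmb/Mmp12 cells and 931.7 CPM in the comparison cells on day 30. On day 7 they summed to 231.5 CPM and 358.6 CPM in the same order. The part of this RNA in the lower counts was not tested. On day 30, Scrublet marked 74 of the 415 comparison cells, beside 144 of the 1462 Gpnmb/Mmp12 cells. Without the marked cells, 109 of the 119 higher and 105 of the 126 lower genes of day 30 kept the call.

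Several genes of lipid uptake were higher in Gpnmb/Mmp12 cells. Of 24 measured genes of a lipid-associated macrophage list, 10 were higher on day 30 and none was lower, with a median log2 ratio of 0.79. Of 23 measured on day 7, 10 were higher and 1, Ldhb, was lower, also with a median of 0.79. Lpl, lipoprotein lipase, had 1434 CPM in Gpnmb/Mmp12 cells and 441 CPM in C1q-rich cells below the threshold on day 30 (ratio 3.25, 3.09 to 3.41), and 1230 CPM and 319 CPM in the same order on day 7 (3.85, 3.50 to 4.26). Cd36, a scavenger receptor that takes up fatty acids and oxidised lipoprotein, was 3.84-fold higher on day 30 (456 CPM and 119 CPM) and 4.67-fold higher on day 7 (296 CPM and 63.4 CPM). Fabp5, a fatty acid carrier of the cytosol, was 3.00-fold higher on day 30 and 3.15-fold higher on day 7. Lgals3, the lectin galectin-3, had 2689 CPM in Gpnmb/Mmp12 cells and 784 CPM in C1q-rich cells below the threshold on day 30, and 2988 CPM and 1056 CPM on day 7.

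Other genes often placed with this group differed less. Trem2 had 435 CPM in Gpnmb/Mmp12 cells and 273 CPM in C1q-rich cells below the threshold on day 30, and 458 CPM and 337 CPM on day 7, which is under 2-fold on both days; among C1q-rich cells alone it passed that line on day 30. Apoe was below the comparison cells on both days, at 12526 CPM and 22770 CPM on day 30 and 13932 CPM and 19780.2 CPM on day 7, also under 2-fold. Spp1, the gene of osteopontin, had 4377 CPM in Gpnmb/Mmp12 cells and 2507 CPM in the comparison cells on day 30, but 8588 CPM and 12808 CPM on day 7. The epithelial cells of these libraries carried more Spp1 than either, with 12203 CPM on day 30 and 35845 CPM on day 7.

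Single genes of acid secretion and cell fusion were higher, while most lysosome genes did not pass the 2-fold line. Atp6v0d2, a proton pump subunit that osteoclasts and macrophages use, had 232 CPM in Gpnmb/Mmp12 cells and 52.2 CPM in C1q-rich cells below the threshold on day 30 (ratio 4.44, 3.87 to 5.13). On day 7 it had 262 CPM and 66.3 CPM in the same order (3.96, 3.20 to 4.95). Dcstamp, which osteoclasts and giant cells need for fusion, was 3.96-fold higher on day 30 (175 CPM and 44.2 CPM) and 11.3-fold higher on day 7 (82.1 CPM and 7.29 CPM). Of 58 measured lysosome genes 4 were higher on day 30 (Atp6v0d2, Ctsk, Igf2r and Gla) and 3 on day 7 (Atp6v0d2, Acp5 and Lipa), with median log2 ratios of 0.18 and 0.23. Over all measured genes, 1.9% were higher on day 30 and 2.65% on day 7. Ctsk, the collagen-cleaving cathepsin of osteoclasts, rested on few cells: 187 of the 1462 cells of day 30 had a UMI of it, and 8 cells held at least 50% of its UMIs. Of the matrix proteases and their inhibitors, Adam8, a cell-surface metalloprotease, and Plaur, the urokinase receptor, were higher on both days.

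The 14 named higher genes, the highest ranked of the 77 counted on both days, also included signalling and transport genes of several kinds. Il7r had 235 CPM in Gpnmb/Mmp12 cells and 34.6 CPM in C1q-rich cells below the threshold on day 30 (ratio 6.81, 5.75 to 8.12), and 166 CPM and 27.7 CPM on day 7 (5.99, 4.33 to 8.52). A UMI of Il7r was found in 53.1% of the cells on day 30 and 68.5% on day 7, against 131 of 2729 epithelial cells on day 30 and 28 of 1345 on day 7. Thinned to 5000 UMIs, these shares were 39.6% and 35.6% of the cells and 2.60% and 0.372% of epithelial cells. Slc7a11, the cystine importer that feeds glutathione synthesis, was 5.49-fold higher on day 30 (94.1 CPM and 17.2 CPM) and 5.87-fold higher on day 7 (85.6 CPM and 14.6 CPM). F10, coagulation factor X, was 6.06-fold higher on day 30 and 4.09-fold higher on day 7. Il1rn, the antagonist of the interleukin-1 receptor, was 3.93-fold higher on day 30 and 3.91-fold higher on day 7. Itgax, the integrin CD11c, was 3.32-fold and 4.03-fold higher on day 30 and day 7, Anxa1 3.77-fold and 3.15-fold, Adam8 4.88-fold and 3.97-fold, and AA467197 3.83-fold and 6.11-fold. Ccl17, a chemokine for CCR4-bearing cells, was 3.99-fold higher on day 30 and 9.52-fold higher on day 7, but at least 50% of its UMIs came from 16 of the 1462 cells on day 30 and from 3 of the 219 on day 7. Beside all 958 myeloid cells below the threshold on day 30, Ccl17 was lower (log2 ratio -1.16).

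A set of resident macrophage genes and chemokines was lower in the cells than in the C1q-rich cells below the threshold. Of the resident macrophage list, 10 of 21 measured genes were lower on day 30 and 14 of 24 on day 7, none was higher, and the median log2 ratio was -0.90 on day 30 and -1.19 on day 7. The comparison cells were picked for high C1q, and beside C1q-low cells below the threshold the list ran the other way on day 30, with 12 of 21 higher and none lower. Of 12 macrophage markers other than the C1q genes, none was higher than in the C1q-rich comparison cells. Lower were 3 on day 30 (Aif1, Fcgr1 and Adgre1) and 4 on day 7 (Adgre1, Ms4a7, Mrc1 and Aif1). Beside the C1q-low cells of day 30, 10 of the 12 were higher. Ccl8, a chemokine that draws monocytes, had 73.3 CPM in Gpnmb/Mmp12 cells and 829 CPM in C1q-rich cells below the threshold on day 30 (ratio 0.0884, 0.0827 to 0.0945), and 136 CPM and 1437 CPM on day 7 (0.0949, 0.0869 to 0.103). Ccl12 and Ccl7, related monocyte attractants, had ratios of 0.201 and 0.214 on day 30 and of 0.202 and 0.262 on day 7; on day 7, 1 of the 219 cells held 49.0% of the Ccl12 UMIs. Pf4, a chemokine of platelets and resident macrophages, had 41.7 CPM and 248 CPM on day 30 and 56.9 CPM and 261 CPM on day 7, Gpnmb/Mmp12 cells first. Maf, a transcription factor of resident macrophages, had 102 CPM in Gpnmb/Mmp12 cells and 321 CPM in the comparison cells on day 30, and 124 CPM and 480 CPM on day 7. Sepp1, the selenium carrier selenoprotein P, had 420 CPM and 1222 CPM on day 30 and 460 CPM and 1233 CPM on day 7. Gpr34, Clec4a1, Ms4a6b and the complement gene C4b made up the 10 named lower genes, with ratios of 0.198 to 0.281 on day 30 and 0.145 to 0.295 on day 7. Beside the C1q-low cells of day 30, Ccl8, Ccl12, Pf4, Maf and Sepp1 were higher in Gpnmb/Mmp12 cells. Of the chemokine and receptor list, 10 of 26 measured genes were higher there and 5 lower.

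**Figure D2:**
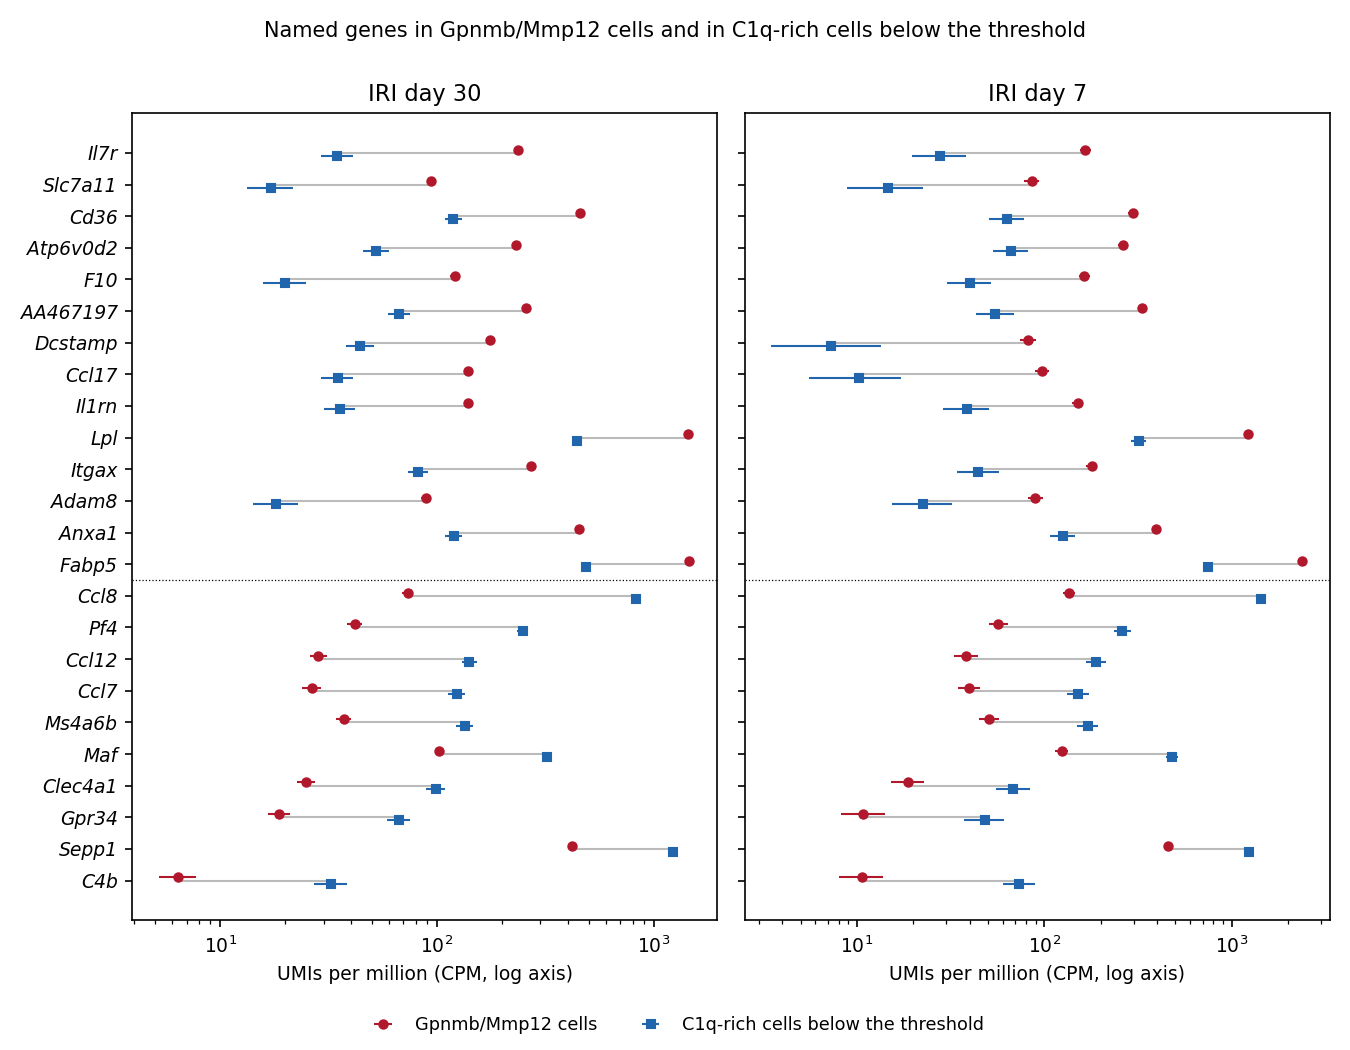
Level (horizontal axis, CPM, log scale) of the 14 higher and 10 lower named genes in Gpnmb/Mmp12 cells (red circles) and in C1q-rich cells below the threshold (blue squares), on day 30 (left) and day 7 (right), with bars for the 95% Poisson interval of the summed UMIs. The red points lie right of the blue ones for the 14 genes above the dotted line, such as Il7r with 235 CPM and 34.6 CPM on day 30, and left of them for the 10 below it.

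Other gene groups were lower, split or did not pass the 2-fold line. Interferon-response genes were lower in 8 of 28 measured on day 30, among them Cxcl9, Cxcl10, Ifit3 and Irf7, and in 6 of 30 on day 7, when Cxcl9 was higher. Of the recruited monocyte list 7 of 23 measured genes were higher on each day, with F10, Fn1, Ear2 and Clec4d in both counts. Arg1 was in the day 7 count, and F13a1, Plac8 and Ms4a4c were lower on day 7. Over all measured genes, 2.02% were lower on day 30 and 9.13% on day 7, and 1.9% and 2.65% were higher. The 3 lower genes of the recruited monocyte list lie near that share and are not read as a result about the list. Fn1, fibronectin, had 1010 CPM in Gpnmb/Mmp12 cells and 406 CPM in C1q-rich cells below the threshold on day 30, and 1620 CPM and 716 CPM on day 7. None of 29 oxidative phosphorylation genes, of 14 cholesterol synthesis genes, or of 9 and 8 class II histocompatibility genes differed by 2-fold in either direction on day 30 or day 7. The MiT factor gene Mitf had 66.7 CPM in Gpnmb/Mmp12 cells and 58.7 CPM in the comparison cells on day 30, and 59.2 CPM and 29.9 CPM on day 7. H2-M2 did not pass the 2-fold line in this comparison: it had 378.5 CPM in Gpnmb/Mmp12 cells and 456.4 CPM in C1q-rich cells below the threshold on day 30, and 34.1 CPM and 18.2 CPM on day 7.

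Because 676 of the Gpnmb/Mmp12 cells on day 30 and 86 on day 7 were themselves C1q-low, the comparison was repeated within C1q-rich cells. The C1q-rich Gpnmb/Mmp12 cells, 786 on day 30 and 133 on day 7, had 103 higher (1.66%) and 140 lower (2.26%) of 6198 measured genes on day 30, and 162 higher (2.5%) and 700 lower (10.8%) of 6480 on day 7. Of the 14 named higher genes, 13 were higher on day 30, all but Ccl17, and 14 on day 7. Of the 10 named lower genes, 9 were lower on each day, all but Sepp1. Trem2 was higher here on day 30, with 594 CPM in C1q-rich Gpnmb/Mmp12 cells and 273 CPM in C1q-rich cells below the threshold (ratio 2.18, 2.04 to 2.32), and had 598 CPM and 337 CPM on day 7 (1.78, 1.60 to 1.97). H2-M2 was 2.51-fold higher on day 7 (45.8 CPM and 18.2 CPM). The resident macrophage list, however, had 3 of 21 measured genes lower on day 30 in this comparison and 10 of 24 on day 7.

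Set beside the 543 C1q-low myeloid cells below the threshold on day 30, many macrophage genes were higher in the Gpnmb/Mmp12 cells. Of 6213 measured genes, 345 were higher (5.55%) and 204 lower (3.28%). Trem2 had 435 CPM in Gpnmb/Mmp12 cells and 24.8 CPM in the C1q-low cells below the threshold (ratio 17.6, 14.6 to 21.4), and Apoe had 12526 CPM and 888 CPM in the same order. Of the lipid-associated list 21 of 23 measured genes were higher, of the lysosome list 27 of 59, of the phagocytosis and scavenger receptor list 15 of 28, of the iron and heme list 9 of 14 and of the resident macrophage list 12 of 21 (median log2 ratio 1.09); none of these lists had a lower gene. H2-M2 was 3.17-fold higher, with 378.5 CPM in Gpnmb/Mmp12 cells and 119 CPM in the C1q-low cells below the threshold. Ctsd, the lysosomal protease cathepsin D, was 9.75-fold higher and Fth1, ferritin heavy chain, 4.31-fold higher. Dendritic cell genes were lower in 17 of 23 measured, with Cd209a at 91.5 CPM in Gpnmb/Mmp12 cells and 786 CPM in the C1q-low cells below the threshold, and Flt3 at 4.36 CPM and 42.1 CPM. Dendritic cell markers summed to 130.8 CPM in Gpnmb/Mmp12 cells and 1015.3 CPM in these comparison cells. The day 7 library had 25 such cells and was not compared.

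The same direction appeared when C1q-low Gpnmb/Mmp12 cells alone were set beside the C1q-low cells below the threshold on day 30. Of 6198 measured genes, 248 were higher (4%) and 137 lower (2.21%). The lipid-associated list had 19 of 24 measured genes higher and the lysosome list 17 of 58, and the dendritic cell list had 15 of 23 lower. Trem2 had 236 CPM in C1q-low Gpnmb/Mmp12 cells and 24.8 CPM in the C1q-low cells below the threshold. Of the 14 named higher genes 11 were higher here too; Itgax and Adam8 did not pass the 2-fold line, and Ccl17 was lower, with 247 CPM and 578 CPM. Of the 10 named lower genes 1, Ms4a6b, was lower.

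Within the Gpnmb/Mmp12 cells, the C1q level went with a second set of genes. C1q-rich cells were 53.8% of them on day 30 (51.2% to 56.3%) and 60.7% on day 7 (53.9% to 67.2%). Between C1q-rich and C1q-low Gpnmb/Mmp12 cells, 104 of 6069 measured genes were higher (1.71%) and 112 lower (1.85%) on day 30, and 118 of 5985 higher (1.97%) and 239 lower (3.99%) on day 7. Apoe had 20305 CPM in the C1q-rich cells and 2768 CPM in the C1q-low ones on day 30, and Cx3cr1, the fractalkine receptor, 289 CPM and 61.7 CPM. Resident macrophage genes were higher in 14 of 21 measured on day 30 and in 14 of 22 on day 7. C1q-low Gpnmb/Mmp12 cells carried more of the monocyte and dendritic cell genes Ear2 (229 CPM in C1q-rich and 602 CPM in C1q-low cells on day 30), Mgl2 (241 CPM and 631 CPM), Ccl17 (52.7 CPM and 247 CPM) and Cd209a (20.0 CPM and 181 CPM). Of the recruited monocyte list, 6 of 23 measured genes were lower in the C1q-rich cells on day 30 and 1, Arg1, was higher. Of the dendritic cell list, 9 of 17 were lower there and 1, Irf8, was higher. On day 7 the monocyte list had 3 of 23 lower and 1 higher, and the dendritic cell list 5 of 12 lower and none higher. Dendritic cell markers summed to 42.2 CPM in the C1q-rich and 242.1 CPM in the C1q-low ones on day 30, and what dendritic cells add to the C1q-low values was not tested.

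Several genes were nearly level across the C1q divide. Lgals3 had 2692 CPM in C1q-rich and 2686 CPM in C1q-low Gpnmb/Mmp12 cells on day 30. Il1rn had 142 CPM and 136 CPM, Il7r 212 CPM and 264 CPM, and Atp6v0d2 257 CPM and 200 CPM, in the same order. On day 7, Il7r had 166 CPM in both sets and Il1rn had 149 CPM in C1q-rich and 154 CPM in C1q-low cells. On day 30 each of these 4 genes was higher in all Gpnmb/Mmp12 cells beside both kinds of comparison cells.

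**Figure D3:**
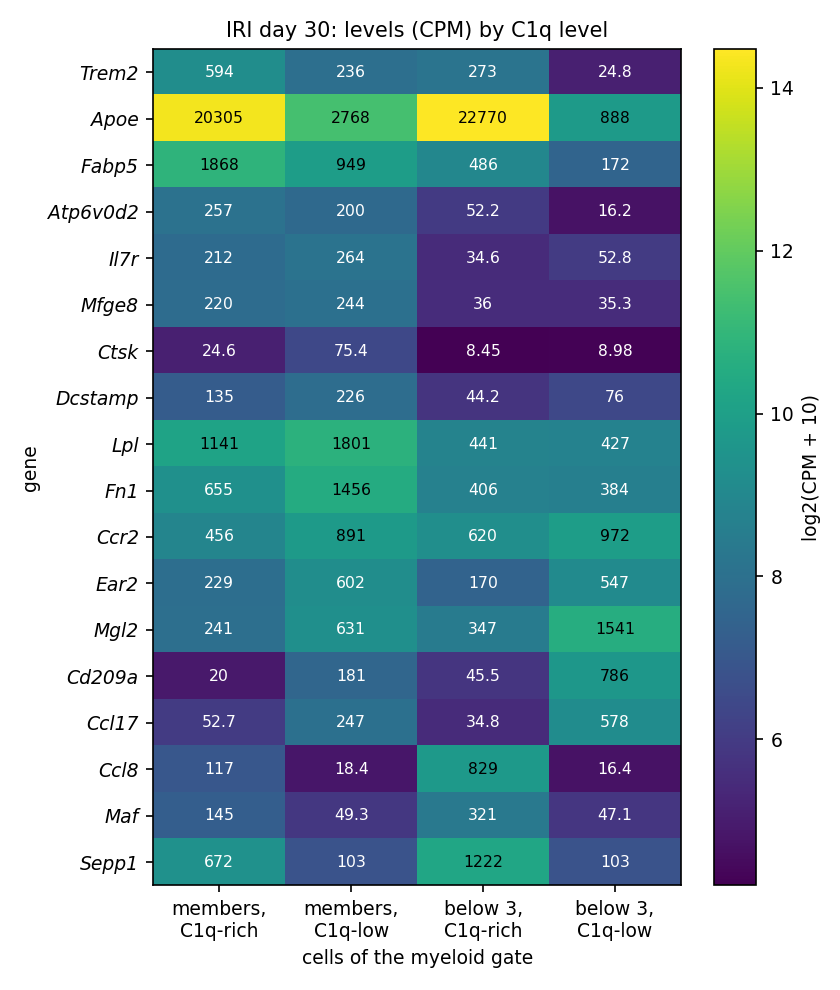
Levels of 18 genes on day 30 (CPM printed in each cell, colour as log2 of CPM plus 10) in 4 sets of myeloid-gate cells, from left to right C1q-rich and C1q-low Gpnmb/Mmp12 cells (members) and C1q-rich and C1q-low cells below the threshold of 3. Il7r, with 212, 264, 34.6 and 52.8 CPM, is higher in both sets of Gpnmb/Mmp12 cells, while the dendritic cell gene Cd209a, with 20.0, 181, 45.5 and 786 CPM, is higher in both C1q-low sets.

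Most genes differed little between the Gpnmb/Mmp12 cells of day 30 and those of day 7. Of 5989 measured genes, 114 were higher on day 30 (1.9%) and 55 lower (0.918%), and the median log2 ratio was 0.01. That is 67.5% of the counted genes higher, against 52.3% without Scrublet calls and 54.4% with free RNA subtracted. Trem2 had 435 CPM on day 30 and 458 CPM on day 7. None of 23 measured lipid-associated genes passed the 2-fold line, although Spp1 was near it with 4377 CPM on day 30 and 8588 CPM on day 7. Of 59 lysosome genes 1, Ctsk, was higher on day 30.

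Among the genes that were lower on day 30 was Arg1, arginase 1, an enzyme of arginine breakdown and polyamine supply in wound macrophages. It had 33.3 CPM on day 30 and 620 CPM on day 7 (ratio 0.0537, 0.0490 to 0.0589), and was found in 84 of 1462 cells on day 30 (5.75%) and in 135 of 219 on day 7 (61.6%); epithelial cells had it in 0.953% and 6.32%. Thinned to 5000 UMIs, it was found in 3.35% of the cells on day 30 and 45.2% on day 7. F7, coagulation factor VII, had 33.3 CPM on day 30 and 166 CPM on day 7. Saa3, an acute-phase protein, had 1.29 CPM and 47.8 CPM in the same order, but 1 cell held 65.2% of its UMIs on day 7 and the level was 16.7 CPM without that cell. Klk1, Havcr1, Sprr1a, Sprr2f and Upk3a, which epithelial cells of kidney or urinary tract make, were also lower on day 30, as were Rnase2a, Slpi, Mmp8 and Nupr1. With free RNA subtracted the log2 ratio of Havcr1 was 0.14, and without cells holding epithelial UMIs Sprr1a, Havcr1, Sprr2f and Nupr1 were not counted as lower. At a threshold of 10 this held for Sprr1a, Nupr1 and Upk3a. Upk3a, at 3.68 CPM on day 30 and 26.1 CPM on day 7, had 63.7% of its day 7 UMIs in 1 cell, and without cells holding epithelial UMIs its log2 ratio was 0.07. Of the interferon list 6 of 26 measured genes were lower on day 30 and none was higher, with Ifit3 at 7.49 CPM and 32.9 CPM and Cxcl10 at 23.1 CPM and 61.4 CPM.

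Genes that were higher on day 30 included Lyz1, a lysozyme gene, with 1461 CPM on day 30 and 118 CPM on day 7 (ratio 12.4, 11.5 to 13.5), and H2-M2, with 378.5 CPM and 34.1 CPM (11.1, 9.56 to 12.98). H2-M2 was found in 44.9% of the cells on day 30 and 10.5% on day 7, against 14.6% and 10.3% of epithelial cells. Thinned to 5000 UMIs, these shares were 37.6% and 6.39% of the cells and 8.06% and 2.75% of epithelial cells. Its level in epithelial cells was 16.5 CPM on day 30 and 5.68 CPM on day 7. Retnla had 1154 CPM on day 30 and 345 CPM on day 7, Il1b, interleukin-1 beta, had 157 CPM and 44.1 CPM, and H2-DMb2, a class II peptide loader, had 74.1 CPM and 19.9 CPM. These 3 genes and Skint3 lost the call among the 140 cells of day 30 that reached the UMI floor of day 7. Of all 114 genes counted as higher on day 30, 62 kept the call there. Mfge8 had 231 CPM on day 30 and 42.8 CPM on day 7, with at least 50% of its day 30 UMIs in 25 cells. Cd209a, a lectin of dendritic cells and some macrophages, had 91.5 CPM and 3.68 CPM, Pla2g2d 36.5 CPM and 0.581 CPM, and Tm4sf1 31.1 CPM and 4.45 CPM. Kap, a proximal tubule gene, had 355 CPM on day 30 and 97.2 CPM on day 7, and proximal tubule markers summed to 466.9 CPM and 231.5 CPM in these cells; with free RNA subtracted the log2 ratio of Kap was -1.1498. Of 18 immediate-early genes, which tissue dissociation is known to switch on, 9 were higher on day 30, led by Egr1 with 570 CPM and 177 CPM, and the part of dissociation in this was not tested. Lyz1 and Lyz2, Rnase2a and Ear2, and Ms4a6b and Ms4a6c are close copies, and the sources used here do not say how reads shared by such copies were counted.

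Much of this difference between days was found outside the Gpnmb/Mmp12 cells too. In the C1q-rich cells below the threshold, 203 of 6618 measured genes were higher on day 30 (3.07%) and 269 lower (4.06%). These counts held 61 of the 114 genes that were higher in Gpnmb/Mmp12 cells (53.5%), which are 30.0% of the comparison cells' own count, and 34 of the 55 lower ones (61.8% and 12.6%). Lyz1 had 1081 CPM on day 30 and 91.8 CPM on day 7 in the C1q-rich cells below the threshold, H2-M2 456.4 CPM and 18.2 CPM, Arg1 24.4 CPM and 121 CPM, and Egr1 897 CPM and 323 CPM. Of the 12 genes named as higher on day 30, Mfge8 and Retnla were measured there and not counted as higher. Skint3, and of the 12 named as lower Slpi, Sprr2f, Mmp8 and Upk3a, fell below the measuring limits there and could not be counted. In those cells Skint3 had 14.2 CPM on day 30 and 1.46 CPM on day 7. Sprr2f had 4.97 CPM and 14.6 CPM, and Mmp8 0.249 CPM and 5.83 CPM. These ran in the same direction as in Gpnmb/Mmp12 cells. Slpi, with 3.48 CPM and 1.46 CPM, and Upk3a, with 5.22 CPM and 1.46 CPM, did not, on 2 UMIs each on day 7. Mfge8 had 36.0 CPM on day 30 and 46.6 CPM on day 7 in those cells, and Retnla 851 CPM and 802 CPM. Whether the difference between days itself differs between the 2 kinds of cells was not tested.

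The split by C1q kept most of the named differences between days. Among C1q-rich Gpnmb/Mmp12 cells, 124 of 5871 measured genes were higher on day 30 (2.11%) and 58 lower (0.988%), and among C1q-low ones 153 of 6181 were higher (2.48%) and 106 lower (1.71%). Of the 12 named higher genes 10 were higher in C1q-rich cells, all but Cd209a and Skint3, and 11 in C1q-low cells, all but Pla2g2d. Of the 12 named lower genes 8 were lower in C1q-rich cells, where Klk1, Sprr1a, Sprr2f and Upk3a were not, and 11 in C1q-low cells, where Rnase2a was not.

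**Figure D4:**
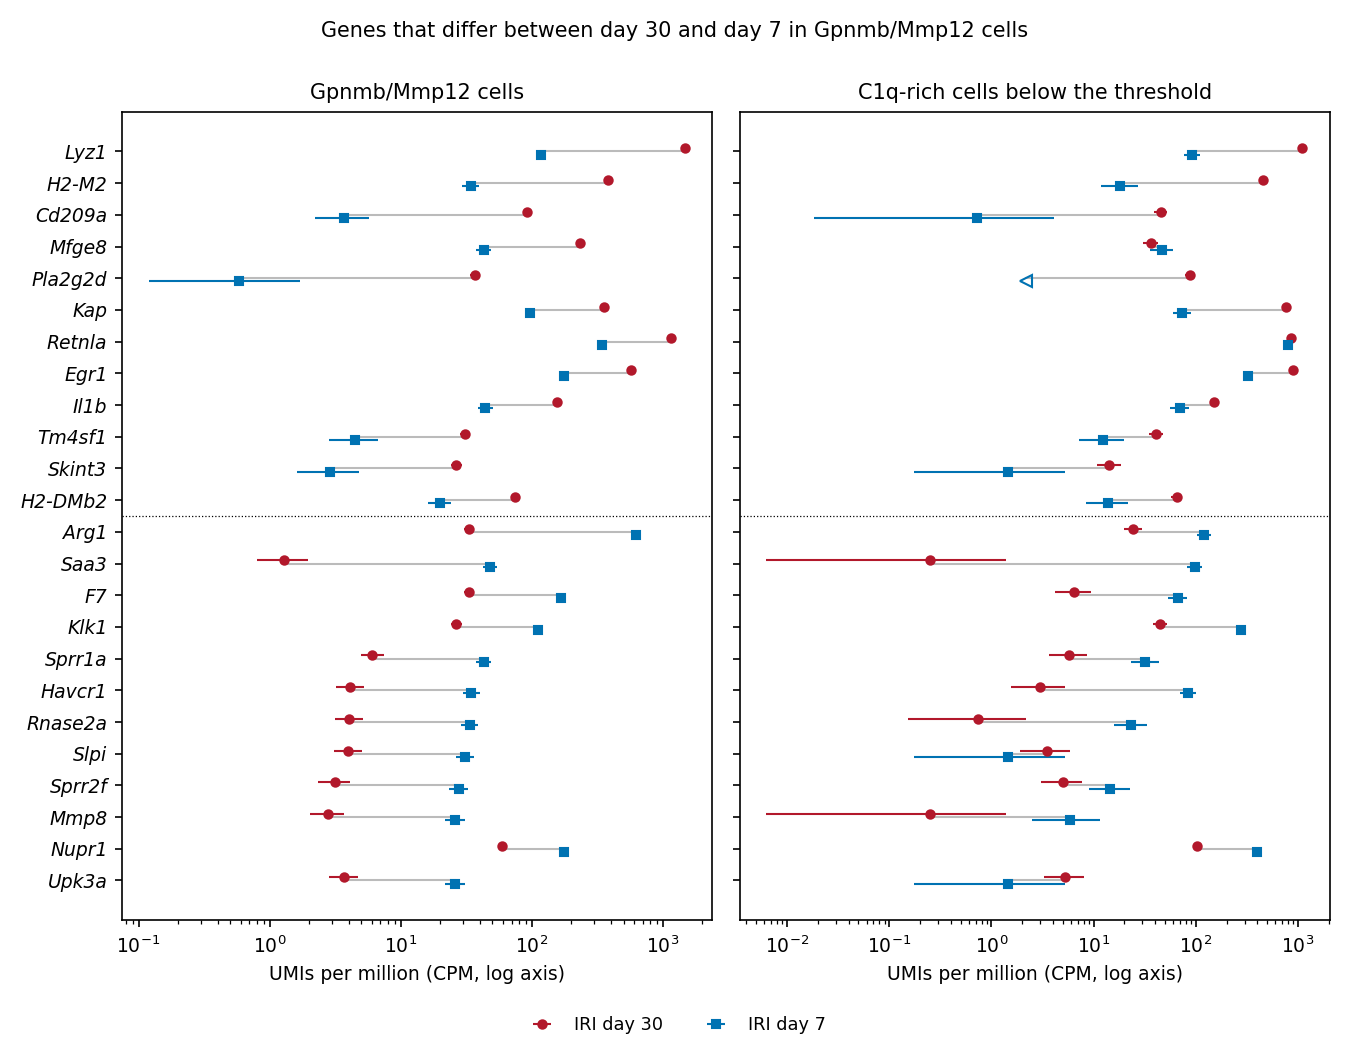
Level (horizontal axis, CPM, log scale) of the 12 genes named as higher and the 12 named as lower on day 30 than on day 7, in Gpnmb/Mmp12 cells (left) and in C1q-rich cells below the threshold (right), with day 30 as red circles, day 7 as blue squares and bars for the 95% Poisson interval. An open triangle is the limit that a count of 0 allows. Arg1, at 33.3 CPM on day 30 and 620 CPM on day 7 in Gpnmb/Mmp12 cells, is lower on day 30 in both panels, while Mfge8 differs in the left panel and is level in the right one.

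Cells that pass the same rule were taken from all 4 libraries. The rule chose them by Gpnmb and Mmp12 in each library, so the levels of these 2 genes are a description of the chosen cells. Untreated kidneys gave 19 such cells, which carried Mmp12 (1440 CPM) and no Gpnmb UMI, which allows up to 32.7 CPM. Proximal tubule markers summed to 15170 CPM in these untreated cells. In the cells of days 2, 7 and 30 they summed to 25.5 CPM, 231.5 CPM and 466.9 CPM. The part of this RNA in the untreated levels was not tested. Gpnmb had 1173 CPM in the 283 cells of day 2, 826 CPM on day 7 and 911 CPM on day 30, while Mmp12 had 674 CPM, 2664 CPM and 3232 CPM. Fabp5 had 54.5 CPM (5 UMIs) in the untreated cells, 4593 CPM on day 2, 2368 CPM on day 7 and 1461 CPM on day 30. Spp1 had 818 CPM, 14395 CPM, 8588 CPM and 4377 CPM over the same libraries, and epithelial cells had 2910 CPM, 41067 CPM, 35845 CPM and 12203 CPM. Trem2, by contrast, was level after injury, with 54.5 CPM (5 UMIs) untreated, 427 CPM on day 2, 458 CPM on day 7 and 435 CPM on day 30.

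Several genes were low on day 2 and higher on both later days. Atp6v0d2 had 12.1 CPM on day 2, 262 CPM on day 7 and 232 CPM on day 30, and Il7r had 54.7 CPM, 166 CPM and 235 CPM. Retnla had no UMI on day 2, which allows up to 0.841 CPM, and 345 CPM and 1154 CPM on days 7 and 30, and Lyz1 had 4.49 CPM, 118 CPM and 1461 CPM on days 2, 7 and 30. Chil3, a chitinase-like protein of recruited macrophages, had 349 CPM on day 2, 8.32 CPM on day 7 and 1.66 CPM on day 30. Arg1 was highest in the middle, with 306 CPM on day 2, 620 CPM on day 7 and 33.3 CPM on day 30. With 1 library at each time, these orders are those of 4 libraries. The cells that the rule took also differed in C1q, with 181 of 283 C1q-low on day 2, 86 of 219 on day 7 and 676 of 1462 on day 30. Neutrophil markers summed to 1279.5 CPM in the cells of day 2, 150.6 CPM on day 7 and 66.8 CPM on day 30. The part of these differences in the orders was not tested.

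**Figure D5:**
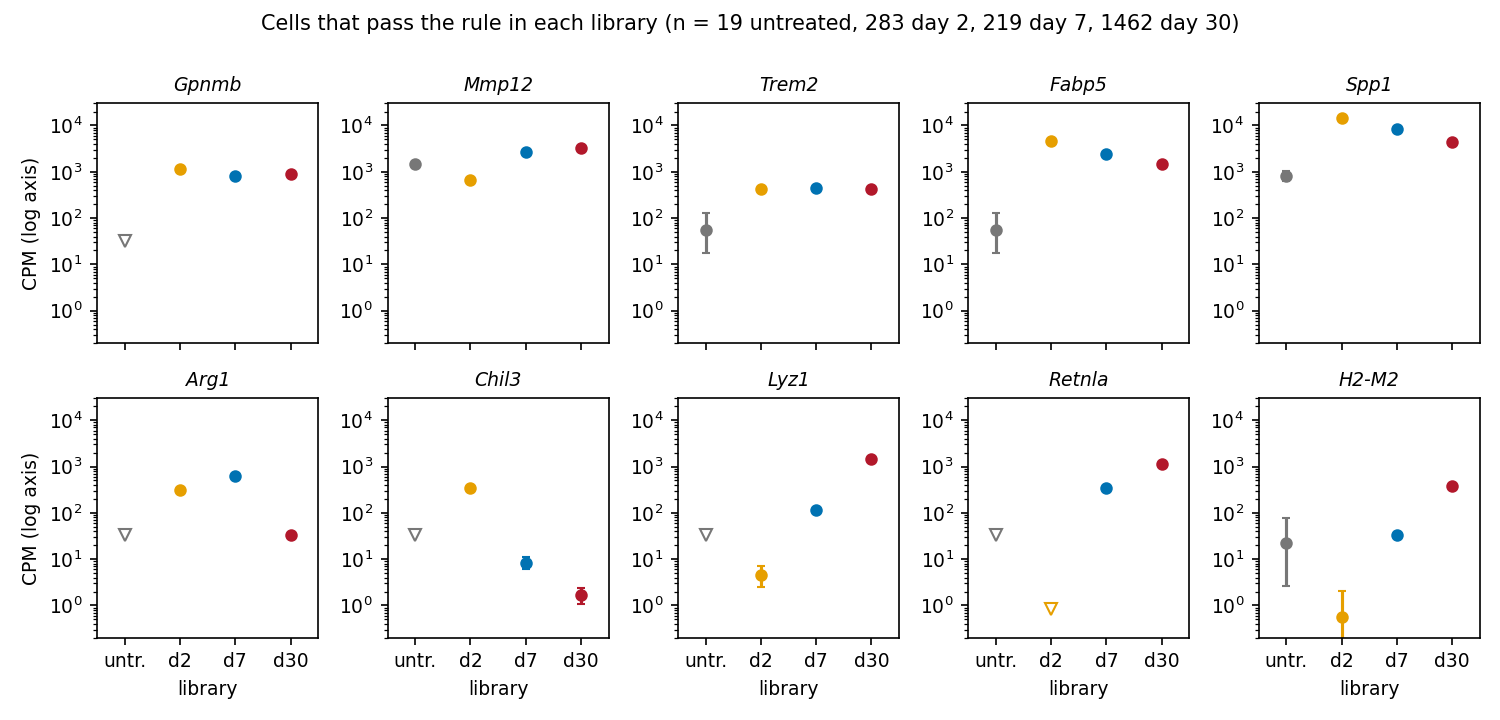
Level (vertical axis, CPM, log scale) of 10 genes in the cells that pass the rule in the untreated (untr.), day 2 (d2), day 7 (d7) and day 30 (d30) libraries, with 19, 283, 219 and 1462 cells and bars for the 95% Poisson interval of the summed UMIs. Open triangles are the limit that a count of 0 allows. Fabp5 and Spp1 are highest on day 2, Arg1 on day 7, and Lyz1, Retnla and H2-M2 on day 30.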

How the data were processed

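Single-cell libraries of sorted kidney cells were deposited by the authors as matrices of whole UMI counts per gene and barcode, not normalized; the submitters' processing notes name the mm10 build and version 7.0.1 of Cell Ranger, and the headers of the deposited matrices name software version 3.0.1. Cell filters beyond those of the deposited matrices are given with the rule. Counts of all cells of a set were summed and scaled to CPM. A gene was measured with at least 20 CPM in either sum and 20 UMIs in both together; log2 ratios used CPM + 10. Ratios have exact 95% Poisson intervals, shares exact Clopper-Pearson intervals, and a count of 0 allows up to 3 counts; all cover counting error only, and no p-value was computed with 1 library per group. Named genes were the 14 higher and 10 lower in both libraries with the largest smaller log2 ratio, and the 12 in each direction between days, without the genes of the rule, the C1q genes and mitochondrial genes; list members are also named. Members and lists were chosen with earlier results of these data known. Of 24 gene lists and 14 marker lists, 6 genes were not analysed here. Scripts were tested on simulated data and used Python 3.11.15, numpy 2.4.6, scipy 1.17.1, pandas 2.3.3, matplotlib 3.10.9 and Scrublet in scanpy 1.11.5; Scrublet marked 1 barcode of the untreated library and so did not work there. Gene positions came from GENCODE, which held 27645 of 27998 gene IDs. Alternatives are listed in the closing section.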

Additional observations from a re-analysis of the deposited data

Results flagged for a closer look

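Ccl22, Cxcl9 and Ly6d passed the 2-fold line in opposite directions on the 2 days when Gpnmb/Mmp12 cells were set beside C1q-rich cells below the threshold; that difference between days was not tested. Ccl22, a chemokine of dendritic cells and macrophages, had 21.6 CPM in Gpnmb/Mmp12 cells and 8.70 CPM in the comparison cells on day 30 (log2 ratio 0.76), and 3.48 CPM and 31.3 CPM on day 7 (log2 ratio -1.62). Cxcl9, an interferon-induced chemokine, had 25.7 CPM and 106 CPM on day 30 (log2 ratio -1.71), and 37.7 CPM and 0.729 CPM on day 7 (log2 ratio 2.15), where 1 cell held 66.2% of its UMIs and the level was 12.8 CPM without it. Ly6d had 12.1 CPM and 25.6 CPM on day 30 (log2 ratio -0.69), and 39.3 CPM and 12.4 CPM on day 7 (log2 ratio 1.14), where 1 cell held 42.4% of its UMIs.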

How the results depend on the processing

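No paired analysis was possible because every group had 1 library. The share of kept cells on day 30 was 16.1% at a threshold of 6 per 10,000 UMIs, 13.04% at 10, 25.8% at 1.5 and 22.9% above the UMI floor of day 7, and on day 7 it was 8.86% at 10. Beside C1q-rich cells, a 50 CPM filter gave 69 higher and 56 lower genes on day 30 and 96 and 226 on day 7; no CPM filter gave 282 and 576 on day 30 and 270 and 1218 on day 7. Subtracting free RNA, scaled to proximal tubule markers, gave 379 higher and 243 lower genes on day 30, so that 60.9% of the counted genes were higher, against 48.6% without it, and a threshold of 10 gave 218 lower genes. Median-of-ratios scaling gave 232 and 471 on day 7, where 33.0% of the counted genes were higher, against 22.5%. Between days, the UMI floor gave 201 higher and 81 lower genes. Of the 114 higher and 55 lower genes counted without that floor, 62 and 39 kept the call. A 50 CPM filter gave 46 higher and 24 lower genes, and no filter 756 and 220. Leaving out Scrublet calls gave 95 lower genes and subtracting free RNA 94 lower. The share of counted genes that were higher was 52.3% and 54.4% in these last 2 cases, against 67.5%. On day 30, 85 of 119 higher and 25 of 126 lower genes kept the call beside all 958 myeloid cells below the threshold. Of the named genes, Itgax, Maf, Sepp1 and C4b lost it there, and Ccl17 was lower (log2 ratio -1.16). Kap (-1.1498) and Havcr1 (0.14) changed direction between days with free RNA subtracted. Upk3a (0.0653) did so without cells holding epithelial UMIs. That last alternative, the threshold of 10 and the C1q-rich comparison were chosen after seeing the data. The cause was not tested in any of these. Over all alternatives, 728 values of named genes kept their direction and call, 36 lost the call and 4 changed direction; of the counts within gene lists 1226 stayed within 1.5 times and 310 moved. The UMI floor on day 30 and the set without epithelial UMIs on day 7 left 14 and 18 comparison cells and were not run. The 59 comparison cells and the single library per time limit every count of day 7.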

Other observations

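Single genes of other groups were also higher in Gpnmb/Mmp12 cells than in C1q-rich cells below the threshold. With 1 library a day these are descriptions. Of the chemokine list 4 of 26 measured genes were higher and 9 lower on day 30, and 4 and 8 of 25 on day 7. The scavenger receptor list had 5 of 28 higher and 2 lower on day 30, and 4 and 4 of 29 on day 7. Transcription factors had 2 of 37 higher and 1 lower on day 30, and 4 and 2 of 35 on day 7. Hypoxia genes had 5 of 23 higher and none lower on day 30, and 2 and 1 on day 7. The chemokine genes Ccl6 and Ccl9 were higher on both days: Ccl6 had 1914 CPM in Gpnmb/Mmp12 cells and 788 CPM in the comparison cells on day 30 (2.43-fold), and 4031 CPM and 1628 CPM on day 7 (2.48-fold). Ccl9 was 2.31-fold higher on day 30 and 2.34-fold higher on day 7. Olr1, a receptor for oxidised lipoprotein, had 34.8 CPM in Gpnmb/Mmp12 cells and 11.4 CPM in the comparison cells on day 30, and 57.5 CPM and 4.37 CPM on day 7. Hilpda, a lipid droplet protein gene that low oxygen switches on, was 3.96-fold higher on day 30 and 2.34-fold higher on day 7, and the transcription factor gene Bhlhe41 was 2.44-fold and 2.66-fold higher on day 30 and day 7. Vegfa, the vascular growth factor gene, had 37.6 CPM in Gpnmb/Mmp12 cells and 16.7 CPM in the comparison cells on day 30 (2.26-fold), and 25.9 CPM and 13.8 CPM on day 7, which is under 2-fold. These genes were chosen after their values were seen. Over all measured genes, 1.9% were higher and 2.02% lower on day 30, and 2.65% and 9.13% on day 7.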
